A study of Mus musculus with 10 samples.

Results

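The muscarinic acetylcholine receptor genes Chrm1, Chrm2, Chrm3, Chrm4 and Chrm5 were followed across cell types and neuron classes of the paraventricular thalamic nucleus (PVT) of the mouse and the regions beside it. The members were taken by gene symbol, with earlier results of these data known. They are 5 of the 33502 symbols in the deposited matrix of unique molecular identifiers (UMIs). Nuclei came from tissue punches of the PVT of C57BL/6J mice aged 12 weeks and were sequenced as 10 libraries. The paper describes tissue of 4 mice pooled for each sample, but for 4 biological replicates and not for 10. In 4 libraries, titled biological replicates, the deposited metadata give the sex as male, and 6 libraries are titled female. The labels name no transgene and no drug, so the comparisons are between cell classes of the same libraries and, beside them, between the sexes. Libraries are named below by sex and by the replicate number of their title.

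Muscarinic receptors are G protein-coupled receptors for acetylcholine. The M1, M3 and M5 receptors, encoded by Chrm1, Chrm3 and Chrm5, couple mainly to Gq/11 proteins, which activate phospholipase C, release calcium through inositol trisphosphate receptors and close KCNQ potassium channels. The M2 and M4 receptors, encoded by Chrm2 and Chrm4, couple mainly to Gi/o proteins, which inhibit adenylyl cyclase and open inwardly rectifying potassium channels of the Kir3 family. Midline thalamic nuclei receive cholinergic axons from the brainstem, and neurons of the medial habenula themselves release acetylcholine.

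The 20503 nuclei held between 875 and 7213 nuclei per male library and between 1049 and 1615 per female library. Neurons had median depths of 12586 to 21085 UMIs in male and of 5666 to 9770 UMIs in female libraries. The 13 mitochondrial symbols, with 0 UMIs in male libraries and 562659 in female ones, were left out of all totals. A barcode sequence was shared between libraries in 46 cases (92 nuclei). The deposited annotation gave 8 cell types, and 24 of 24 markers of these types had their highest level in their own type. Of 10410 neurons, the 10307 with over 1000 genes were clustered again, and clusters were named from regional markers. This gave 5931 PVT-like nuclei, 1726 nuclei like the mediodorsal thalamus (MD-like), 789 like the intermediodorsal thalamus (IMD-like), 1006 BSTpr-like (the principal part of the posterior bed nucleus of stria terminalis) and 855 habenula-like (Hb-like) nuclei. PVT-like neurons were clustered further into 5 subtypes. The PVT1-like subtype held 2624 nuclei, PVT3-like 1040, PVT4-like 825, PVT2-like 782 and PVT5-like 660. Of 26 regional markers, 25 were highest in their own group, with the IMD marker Crhr1 at 10.2 CPM (UMIs per 1000000 UMIs) in BSTpr-like and 9.35 CPM in IMD-like neurons, and all 30 subtype markers were highest in their own subtype. The neuron clusters were named with these markers, so the regional and subtype counts do not test the names. Some PVT1 markers had narrow margins over the next subtype, as Esr1 (26.0 against 24.4 CPM) and Drd2 (30.3 against 27.2 CPM). Egflam had a wider one (45.0 against 23.7 CPM). A PVT1-like cluster of 1448 nuclei was named on 3 markers. The muscarinic and pathway genes took no part in this clustering. The split of neurons first set out for these genes was narrower, by UMIs of 1 marker gene each (C1ql3 for PVT, Adarb2 for MD, Gad2 for BSTpr, Nwd2 for Hb, and Col12a1, Cadps2 and Npsr1 for PVT2, PVT3 and PVT4). Clusters named from several markers replaced it, and the fit of the single-marker split, added after the data were seen, is given beside the results it changes. As fitted, a nucleus entered this split with UMIs of its marker and of no other marker of the same level. Nuclei named below by a marker of this split are meant in that sense.

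Levels in CPM are UMIs of a gene relative to all non-mitochondrial UMIs, summed over the nuclei of a class in each library, for sums of at least 10 nuclei. Fold changes compare a class with the mean of the other classes within libraries (edgeR quasi-likelihood test over all genes that passed a filter on low counts), and a gene is called where its Benjamini-Hochberg adjusted p is under 0.05 and its absolute log2 fold change over 0.5. A sum over nuclei does not tell more positive nuclei from more UMIs per nucleus, and UMIs in a nucleus do not measure receptor protein.

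Chrm3 and Chrm2 gave almost all muscarinic UMIs, and only these 2 of the 5 members passed the filter on low counts in the comparisons of classes. Chrm3 had 45684 UMIs and Chrm2 had 14024, while Chrm1 had 137, Chrm5 had 15 and Chrm4 had 4. These totals were not divided by gene length and are given as the depth behind each member, not as an order of the receptors. The genes differ widely in the length from which nuclear transcripts can be counted. In the GENCODE vM21 annotation on GRCm38 (mm10), Chrm3 spans 485362 bases on the minus strand (chr13:9875486-10360847) and Chrm2 spans 140331 bases on the plus strand (chr6:36388084-36528414). Chrm1 spans 19799 bases on the plus strand (chr19:8663789-8683587), whereas Chrm4 (chr2:91927249-91928688, plus strand) and Chrm5 (chr2:112479171-112480769, minus strand) are single exons of 1440 and 1599 bases there. The RefSeq annotation of the same build gives Chrm4 and Chrm5 longer spans, of 7647 and 57629 bases, and the spans of the other 3 members are alike in both. A lincRNA, 9330158H04Rik, overlaps Chrm2 on the opposite strand, and the antisense gene Gm26861 overlaps Chrm3. No source used here says whether the authors counted by strand.

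Chrm3, the receptor coupled to Gq/11, separated the neuron groups into a high and a low set. Per library, Chrm3 ranged from 722 to 1050 CPM with a median of 905 in IMD-like neurons, from 365 to 827 CPM with a median of 679 in BSTpr-like neurons, and from 536 to 702 CPM with a median of 611 in MD-like neurons. It ranged from 103 to 195 CPM with a median of 160 in PVT-like neurons and from 71.0 to 164 CPM with a median of 131 in Hb-like neurons. No library of the 3 high groups overlapped any library of the PVT-like or Hb-like group. PVT-like neurons thus held 60.5% of the UMIs of all genes in the 5 groups but 28.2% of the Chrm3 UMIs, whereas MD-like neurons held 19.1% and 35.3%.

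**Figure D1:**
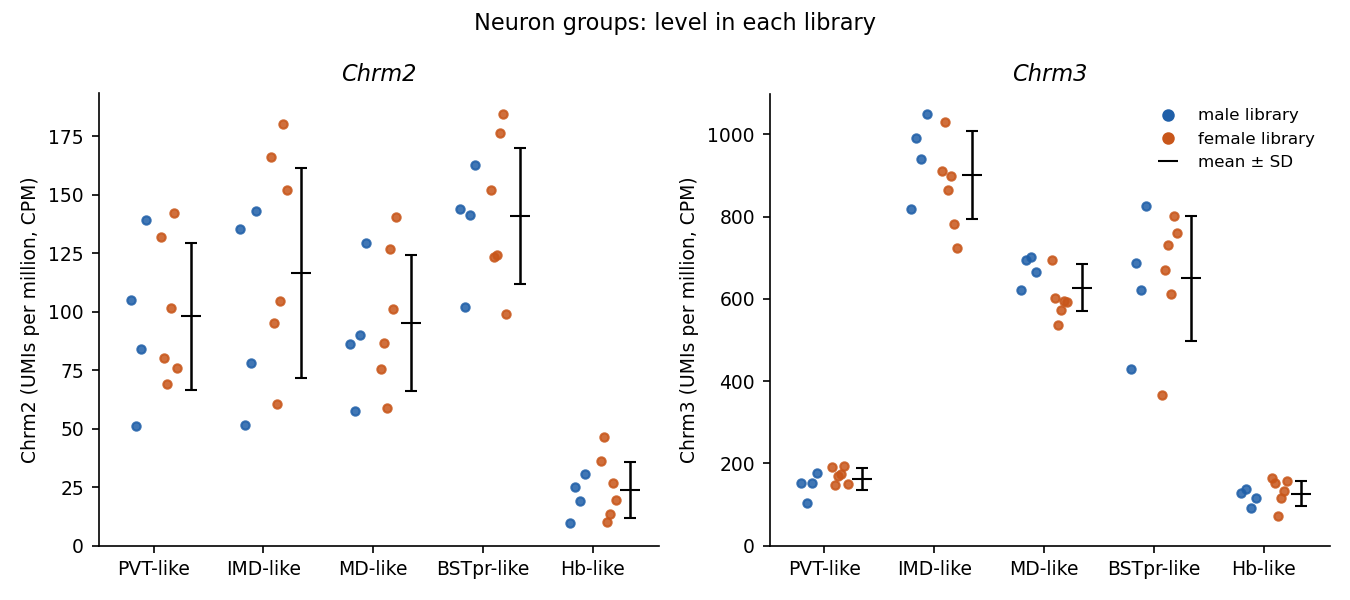
Levels of Chrm2 (left) and Chrm3 (right) in CPM on linear axes from 0, in 5 neuron groups. Each point is 1 library (4 male in blue, 6 female in orange) and the black bar is the mean ± SD over 10 libraries. Chrm3 lies between 365 and 1050 CPM in IMD-like, MD-like and BSTpr-like neurons and between 71.0 and 195 CPM in PVT-like and Hb-like neurons, while Chrm2 lies between 9.69 and 46.4 CPM in Hb-like neurons and at 51.3 CPM or more in the others.

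Chrm3 was called in each of the 5 groups. It was higher in IMD-like neurons (log2 fold change 1.66 ± 0.08 SE, adjusted p 1.7e-24), where 15.5% of the 11432 genes tested were called. It was higher in MD-like neurons (1.04 ± 0.08, adjusted p 3.7e-17), where 27.2% were called, and in BSTpr-like neurons (0.88 ± 0.08, adjusted p 5.8e-13), where 18.6% were called. It was lower in PVT-like neurons (-1.55 ± 0.09, adjusted p 2.9e-21), where 17.7% were called, and in Hb-like neurons (-2.04 ± 0.11, adjusted p 5.4e-23), where 41.9% were called. In the order of mean levels, IMD-like neurons (901 ± 107 CPM, SD, n = 10) exceeded BSTpr-like neurons (650 ± 152 CPM) in 8 of 10 libraries (adjusted p 0.0488, exact two-sided sign-flip permutation test over libraries, adjusted over 75 neighbouring pairs). BSTpr-like and MD-like neurons (627 ± 57.9 CPM) did not differ beyond the spread between libraries (adjusted p 1, exact test). MD-like exceeded PVT-like neurons (161 ± 26.7 CPM) in 10 of 10 libraries by 1.97 ± 0.33 (SD) on the log2 scale (adjusted p 0.0183, exact test, from the smallest p that 10 libraries allow). PVT-like exceeded Hb-like neurons (127 ± 29.5 CPM) in 7 of 10 libraries, which did not pass (adjusted p 0.188, exact test).

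A class far from the rest enters the mean with which the other classes are compared. With Hb-like neurons left out of the fit, an alternative added after the data were seen, Chrm3 stayed called in IMD-like (1.22), MD-like (0.54) and PVT-like neurons (-2.17), and its call in BSTpr-like neurons was lost (0.41). In the single-marker split, which has no IMD-like group, Chrm3 had 714 ± 77.8 CPM in nuclei with Adarb2 and 169 ± 29.0 CPM in nuclei with C1ql3 (SD, n = 10), with calls in both (1.67 and -1.24). Nuclei with Nwd2 had 273 ± 82.7 CPM (n = 10) and nuclei with Gad2 had 412 ± 180 CPM (93 nuclei in 5 libraries), and the calls in Hb-like (-0.45) and BSTpr-like neurons (0.02) were lost. Of the nuclei with Nwd2, 62.6% were in the Hb-like cluster.

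Chrm2, the receptor coupled to Gi/o, was spread more evenly over the BSTpr-like, IMD-like, PVT-like and MD-like groups and was low in Hb-like neurons. Per library it ranged from 99.1 to 185 CPM with a median of 143 in BSTpr-like neurons, from 51.7 to 180 CPM with a median of 120 in IMD-like neurons, from 51.3 to 142 CPM with a median of 93.0 in PVT-like neurons, and from 57.4 to 141 CPM with a median of 88.4 in MD-like neurons. In Hb-like neurons it ranged from 9.69 to 46.4 CPM with a median of 22.3. The ranges of the first 4 groups overlapped one another, and none reached down to that of Hb-like neurons.

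Chrm2 was called higher in BSTpr-like (log2 fold change 0.91 ± 0.10 SE, adjusted p 1.2e-10) and IMD-like neurons (0.68 ± 0.10, adjusted p 3.6e-07) and lower in Hb-like neurons (-2.31 ± 0.15, adjusted p 5.9e-20, all edgeR). In MD-like (0.42 ± 0.09) and PVT-like neurons (0.31 ± 0.08) the adjusted p values were 1.6e-04 and 0.00204, with fold changes under the limit of 0.5. Of the 4 steps between neighbouring mean levels, only that from MD-like (95.3 ± 29.1 CPM) to Hb-like neurons (23.8 ± 11.8 CPM) passed (adjusted p 0.0183, exact sign-flip permutation test, n = 10). BSTpr-like (141 ± 29.1 CPM), IMD-like (117 ± 45 CPM), PVT-like (98.1 ± 31.4 CPM) and MD-like neurons were not separated in order. The call in IMD-like neurons was lost when only neurons over 2000 genes were used (0.49), and that in MD-like neurons was gained without female library 5 (0.50). The higher calls rested on the low level of Hb-like neurons. With Hb-like neurons left out of the fit, Chrm2 was called in none of the other 4 groups, at 0.38 in BSTpr-like, 0.09 in IMD-like, -0.21 in MD-like and -0.26 in PVT-like neurons. In the single-marker split Chrm2 stayed called in Hb-like neurons (-0.55), where it had 70.1 ± 34.7 CPM (n = 10), and its call in BSTpr-like neurons was lost (0.25).

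The deposited neuron clusters, which did not depend on the clustering used here, gave levels in a like range, and clusters 3 and 8 were both named MD-like. Cluster 7, named IMD-like by its markers, had 922 ± 117 CPM of Chrm3 and 106 ± 37.0 CPM of Chrm2 (SD, n = 10). Cluster 5, named BSTpr-like, had 643 ± 168 and 143 ± 36.9 CPM, and cluster 6, named Hb-like, had 126 ± 29.2 and 25.2 ± 12.7 CPM. Cluster 8 took this name on a weak match, with 3 MD markers over the limit and a mean log2 fold of the markers of 0.60. In cluster 3 these were 6 markers and 3.64, so cluster 8 may not hold MD neurons. Of these clusters, cluster 3 had 678 ± 81.5 CPM of Chrm3 and 86.7 ± 27.0 CPM of Chrm2. Cluster 8 had 437 ± 71.5 CPM of Chrm3 and 162 ± 52.6 CPM of Chrm2. Cluster 8 was thus higher in Chrm2 in 10 of 10 libraries and lower in Chrm3 in 10 of 10 libraries, a description of clusters that were built with these genes and that was not tested. The PVT-like clusters 1, 2 and 4 had 163, 205 and 59 CPM of Chrm3 and 147, 38.7 and 5.35 CPM of Chrm2.

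Within PVT-like neurons, Chrm2 differed between every pair of neighbouring subtypes. Per library it ranged from 124 to 391 CPM with a median of 269 in PVT2-like, from 88.3 to 230 CPM with a median of 158 in PVT5-like and from 54.0 to 143 CPM with a median of 90.2 in PVT1-like neurons. It ranged from 3.19 to 60.9 CPM with a median of 19.4 in PVT4-like and from 0 to 23.4 CPM with a median of 3.65 in PVT3-like neurons. PVT2-like neurons, with 13.3% of the UMIs of PVT-like neurons, held 36.7% of their Chrm2 UMIs, and PVT3-like neurons, with 16.8%, held 1.75%. Male library 4 held 110 of the 147 Chrm2 UMIs of PVT3-like neurons, and without it their share was 0.860%.

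**Figure D2:**
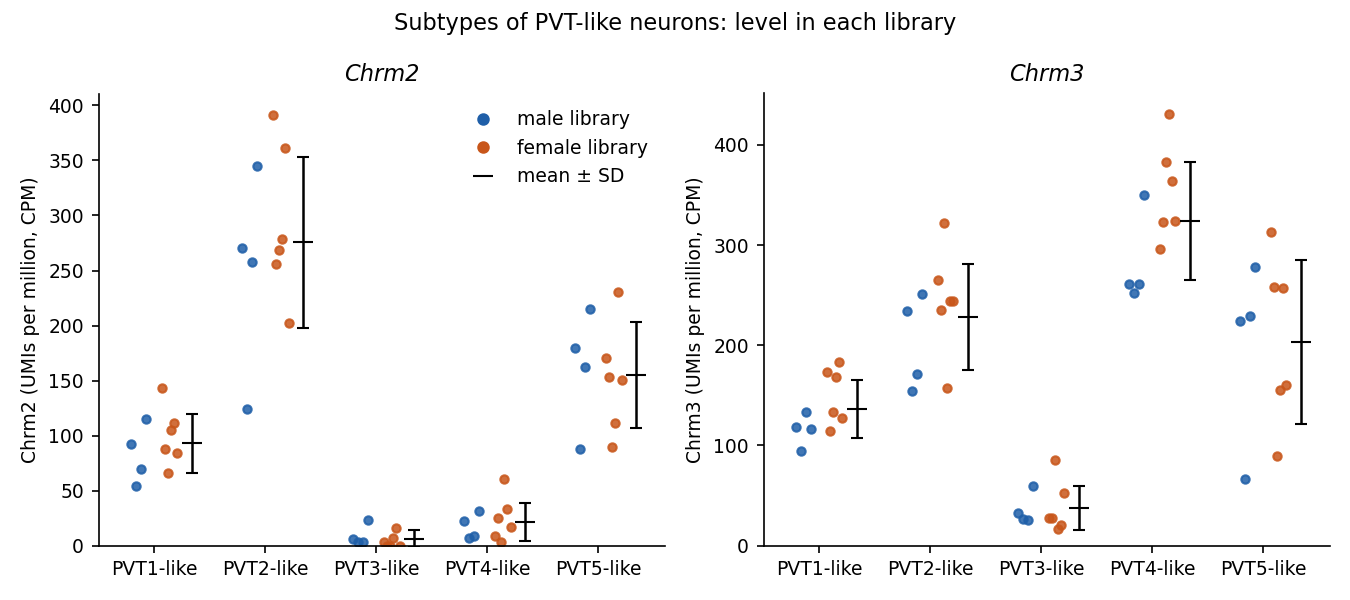
Levels of Chrm2 (left) and Chrm3 (right) in CPM on linear axes from 0, in 5 subtypes of PVT-like neurons. Each point is 1 library (4 male in blue, 6 female in orange) and the black bar is the mean ± SD over 10 libraries, with bars that reach below 0 ending at the axis. PVT3-like neurons are low in both genes, and PVT4-like neurons are high in Chrm3 (252 to 430 CPM) and low in Chrm2 (3.19 to 60.9 CPM).

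Chrm2 was called higher in PVT2-like neurons (log2 fold change 2.75 ± 0.09 SE, adjusted p 2.2e-43), where 9.88% of the 9621 genes tested were called, in PVT5-like neurons (1.85 ± 0.10, adjusted p 6.2e-29), where 6.9% were called, and in PVT1-like neurons (0.70 ± 0.09, adjusted p 4.2e-10), where 6.85% were called. It was called lower in PVT3-like neurons (-3.24 ± 0.16, adjusted p 4.5e-32), where 14.3% were called, and in PVT4-like neurons (-2.06 ± 0.15, adjusted p 1.7e-20, all edgeR), where 10.3% were called. The order PVT2-like (275 ± 77.9 CPM), PVT5-like (155 ± 48.1 CPM), PVT1-like (92.9 ± 26.6 CPM), PVT4-like (21.8 ± 17.3 CPM) and PVT3-like (6.29 ± 7.61 CPM) held at each of its 4 steps in 10 of 10 libraries (adjusted p 0.0183 for each, exact sign-flip permutation test). With PVT3-like neurons left out of the fit, an alternative added after the data were seen, Chrm2 stayed called in PVT2-like (2.08), PVT5-like (1.10) and PVT4-like neurons (-3.06), while the call in PVT1-like neurons was lost and its sign turned (-0.12).

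In the single-marker split, Chrm2 had 188 ± 49.4 CPM in nuclei with Col12a1 and 26.8 ± 11.9 CPM in nuclei with Cadps2 (SD, n = 10), with calls in both (1.90 and -2.17). Nuclei with Npsr1 had 149 ± 87.5 CPM (107 nuclei in 4 libraries), and the sign of Chrm2 in PVT4-like neurons turned (0.27, not called). Of all 143 nuclei with Npsr1 and neither Col12a1 nor Cadps2, 37 (25.9%) were in the PVT4-like cluster. They made up 4.48% of the 825 nuclei of that cluster, so this value does not describe most PVT4-like nuclei.

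Chrm3 followed another order among the subtypes, with PVT4-like neurons at the top. It ranged from 252 to 430 CPM with a median of 324 in PVT4-like, from 155 to 322 CPM with a median of 240 in PVT2-like and from 67.0 to 312 CPM with a median of 227 in PVT5-like neurons. It ranged from 94.1 to 183 CPM with a median of 130 in PVT1-like and from 16.4 to 85.6 CPM with a median of 28.0 in PVT3-like neurons. PVT4-like neurons did not overlap PVT1-like neurons, and PVT3-like neurons did not overlap PVT1-like, PVT2-like or PVT4-like neurons in any library.

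Chrm3 was called higher in PVT4-like (log2 fold change 1.27 ± 0.09 SE, adjusted p 4.4e-22), PVT2-like (0.72 ± 0.10, adjusted p 2.3e-09) and PVT5-like neurons (0.70 ± 0.09, adjusted p 2.6e-09) and lower in PVT3-like neurons (-2.45 ± 0.12, adjusted p 3.3e-31, all edgeR). In PVT1-like neurons its fold change of -0.23 ± 0.08 stayed under the limit of 0.5 (adjusted p 0.0309, edgeR). PVT4-like (324 ± 58.8 CPM) exceeded PVT2-like neurons (228 ± 52.7 CPM), and PVT1-like (136 ± 29.1 CPM) exceeded PVT3-like neurons (37.6 ± 21.6 CPM), in 10 of 10 libraries (adjusted p 0.0183 for both, exact sign-flip permutation test, n = 10). PVT5-like neurons (203 ± 81.7 CPM) were not separated from PVT2-like (adjusted p 0.806) or PVT1-like neurons (adjusted p 0.234, exact test, n = 10). The call in PVT5-like neurons was lost at a higher cluster resolution (0.49). With PVT3-like neurons left out of the fit, Chrm3 stayed called in PVT4-like neurons (0.69), the calls in PVT2-like (0.12) and PVT5-like neurons (0.09) were lost, and PVT1-like neurons were called lower (-0.90). In the single-marker split Chrm3 was called in all 3 subtypes, at 0.76 in PVT4-like, 0.61 in PVT2-like and -1.37 in PVT3-like neurons.

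**Figure D3:**
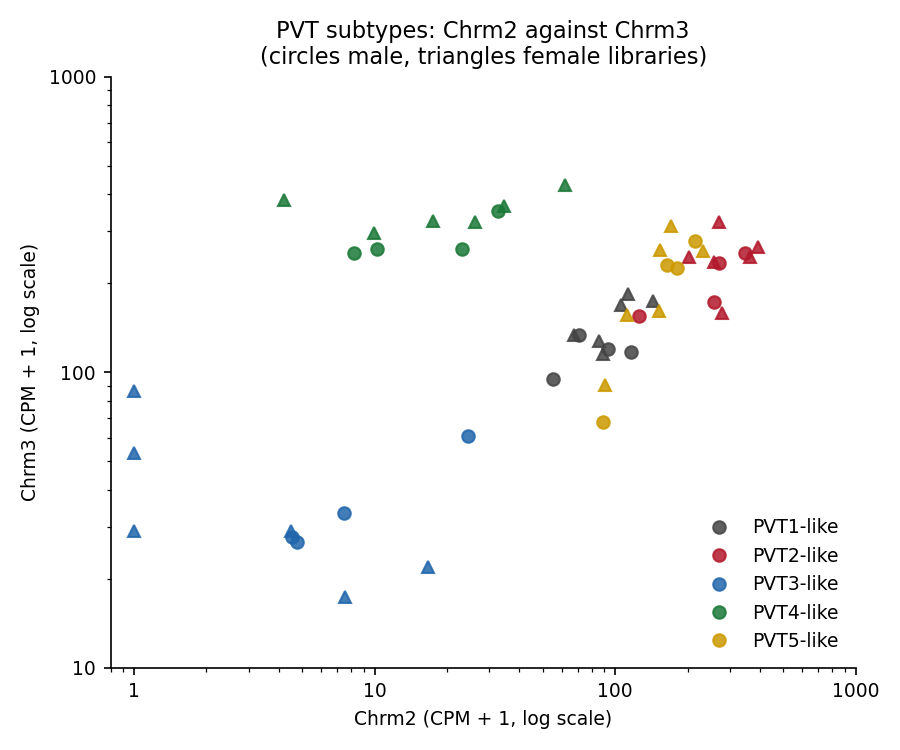
Chrm2 (horizontal) against Chrm3 (vertical) in CPM + 1 on log axes, 1 point for each of 10 libraries and 5 subtypes of PVT-like neurons (circles male, triangles female). PVT3-like points lie at the lower left, PVT4-like points at the upper left with Chrm3 above 252 CPM and Chrm2 at most 60.9 CPM, and the other 3 subtypes at the upper right.

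The 2 receptors were also found in the same nuclei. In PVT-like neurons, 2330 of 5931 nuclei held a Chrm2 UMI, 2800 a Chrm3 UMI and 1390 both. With nuclei compared at like depth within each library, the odds ratio of finding both was above 1 in 9 of 10 libraries, with a median of 1.98 and a range of 0.936 to 2.93. This ratio pooled the subtypes, which differ in both genes. In MD-like neurons, where 1568 of 1726 nuclei held a Chrm3 UMI, it was above 1 in 4 of 8 libraries with a median of 1.07.

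The share of nuclei with a UMI, after each nucleus was thinned to 2000 UMIs, gave a view of detection at equal depth. Chrm3 was found in 78.1 ± 4.9% of IMD-like, 62.3 ± 5.4% of MD-like, 52.3 ± 9.5% of BSTpr-like, 20.4 ± 2.0% of PVT-like and 16.6 ± 5.3% of Hb-like nuclei (mean ± SD, n = 10). Within the PVT it was found in 37.5 ± 5.5% of PVT4-like and in 6.56 ± 3.53% of PVT3-like nuclei. The same measure gave 5.50 ± 3.43% in microglia and 4.71 ± 4.09% in oligodendrocytes, so that the share in PVT3-like neurons was within the spread of these other cell types. Chrm2 was found in 35.8 ± 7.8% of PVT2-like, 21.0 ± 7.2% of PVT5-like and 13.1 ± 3.6% of PVT1-like nuclei, against 3.28 ± 1.98% of PVT4-like, 2.56 ± 1.99% of Hb-like and 1.13 ± 1.22% of PVT3-like nuclei. Microglia had 2.50 ± 3.08% and oligodendrocytes 1.27 ± 1.61%, and the shares of Chrm2 in PVT4-like, Hb-like and PVT3-like neurons lay within the spread of these other cell types. Without thinning, Chrm2 was found in 77.9 ± 11% of PVT2-like and 4.70 ± 4.78% of PVT3-like nuclei, and Chrm3 in 65.0 ± 9.7% of PVT4-like and 19.6 ± 6.1% of PVT3-like nuclei. Median depths were 11948 UMIs in PVT-like neurons, 2159 in microglia and 2311.5 in oligodendrocytes.

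Markers of other cell types were counted in every neuron class. All 8 such markers had UMIs in each neuron group, and their summed level was 49.8 ± 21.1 CPM (22.4 to 82.6) in PVT-like, 45.6 ± 15.9 CPM (22.2 to 69.8) in MD-like, 53.4 ± 36.3 CPM (18.1 to 144) in IMD-like, 74.8 ± 35.9 CPM (30.1 to 139) in BSTpr-like and 70.2 ± 30.2 CPM (33.0 to 111) in Hb-like neurons (SD, n = 10). Of the 8 markers, only Agt, Cx3cr1, Mal and Tmem212 passed the filter on low counts over the neuron groups. The astrocyte marker Agt was called higher in Hb-like (log2 fold change 0.79, adjusted p 4.3e-04) and BSTpr-like neurons (0.55, adjusted p 0.0140, both edgeR). The ependymal marker Tmem212 was called higher in BSTpr-like neurons (0.84, adjusted p 0.00746) and the oligodendrocyte marker Mal lower in PVT-like neurons (-0.67, adjusted p 0.00137, both edgeR). In the PVT subtypes the means of the sum lay between 48.7 and 51.1 CPM. Only Agt and Cx3cr1 passed the filter there, and neither was called, while the other markers were not tested. Their part in the differences of Chrm2 and Chrm3 was not tested.

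Chrm1, which encodes the Gq/11-coupled M1 receptor of forebrain neurons, was found in few nuclei, mostly in Hb-like and BSTpr-like neurons and in oligodendrocyte precursor cells (OPCs). Hb-like neurons had 52 UMIs in 40 of 855 nuclei (4.68%, 95% exact binomial interval 3.36 to 6.32%) in 8 libraries, and BSTpr-like neurons had 23 UMIs in 18 of 1006 nuclei (1.79%, 1.06 to 2.81%) in 8 libraries. MD-like neurons had 6 UMIs in 6 of 1726 nuclei and PVT-like neurons 5 UMIs in 5 of 5931 nuclei (0.0843%, 0.0274 to 0.197%), and IMD-like neurons had 0 in 789 nuclei, which, by a limit of 3 counts, allows a UMI in up to 0.380% of nuclei. These intervals cover counting error only. Hb-like and BSTpr-like neurons were shallower than PVT-like neurons (median 7401, 6217 and 11948 UMIs). In a fit without the filter on low counts, Chrm1 was called higher in Hb-like (adjusted p 1.4e-27) and BSTpr-like neurons (adjusted p 3.7e-08, both edgeR), and no size is given since IMD-like neurons, at 0, enter the mean. The share of all genes called in that fit is not given here. No step between neighbouring mean levels passed the exact sign-flip permutation test. Hb-like exceeded BSTpr-like neurons in 7 of 10 libraries (adjusted p 0.513) and BSTpr-like exceeded MD-like neurons in 8 of 10 (adjusted p 0.0901, both exact test). Outside neurons, Chrm1 was found in OPCs with 28 UMIs in 26 of 473 nuclei (5.50%, 3.62 to 7.95%) in 9 libraries, against 1 UMI in 2462 oligodendrocytes and 11 UMIs in 5302 astrocytes. A fit over cell types without that filter called Chrm1 higher in OPCs (adjusted p 4.4e-12, edgeR). No size is given since types with 1 to 3 UMIs enter the mean. Endothelial cells had 3 UMIs in 3 of 215 nuclei (1.40%, 0.289 to 4.02%), an interval that overlaps that of OPCs. OPCs exceeded endothelial cells in 4 of 6 libraries (adjusted p 0.408, exact sign-flip permutation test).

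Chrm5 and Chrm4 were close to absent from the counts. Of the 15 Chrm5 UMIs, 12 were in BSTpr-like neurons, in 11 of 1006 nuclei (1.09%, 0.547 to 1.95%) and 5 libraries, 2 were in fibroblasts and 1 in an oligodendrocyte. The other 4 neuron groups had 0 Chrm5 UMIs, so no fold change is given. In the 5931 PVT-like nuclei this allows, by the same limit of 3 counts, a UMI in up to 0.0506% of nuclei. Chrm4 had 4 UMIs in 3 of 10410 neurons, 3 of these UMIs in PVT-like and 1 in BSTpr-like neurons, and 0 in all other cell types. The levels of both genes were not detectable at this depth in most classes rather than shown to be absent.

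Across cell types, Chrm2 and Chrm3 were genes of neurons. Chrm2 had 97.1 ± 26.0 CPM in neurons (54.9 to 136, median 95.1, n = 10) and mean levels of 4.29 to 29.4 CPM in the other 7 types. Chrm3 had 347 ± 37.0 CPM in neurons (270 to 397, median 348), 18.5 to 65.4 CPM in 6 of the other types and 428 ± 409 CPM in fibroblasts. Neurons held 96.9% of the Chrm2 and 97.2% of the Chrm3 UMIs, with 79.6% of the UMIs of all genes.

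**Figure D4:**
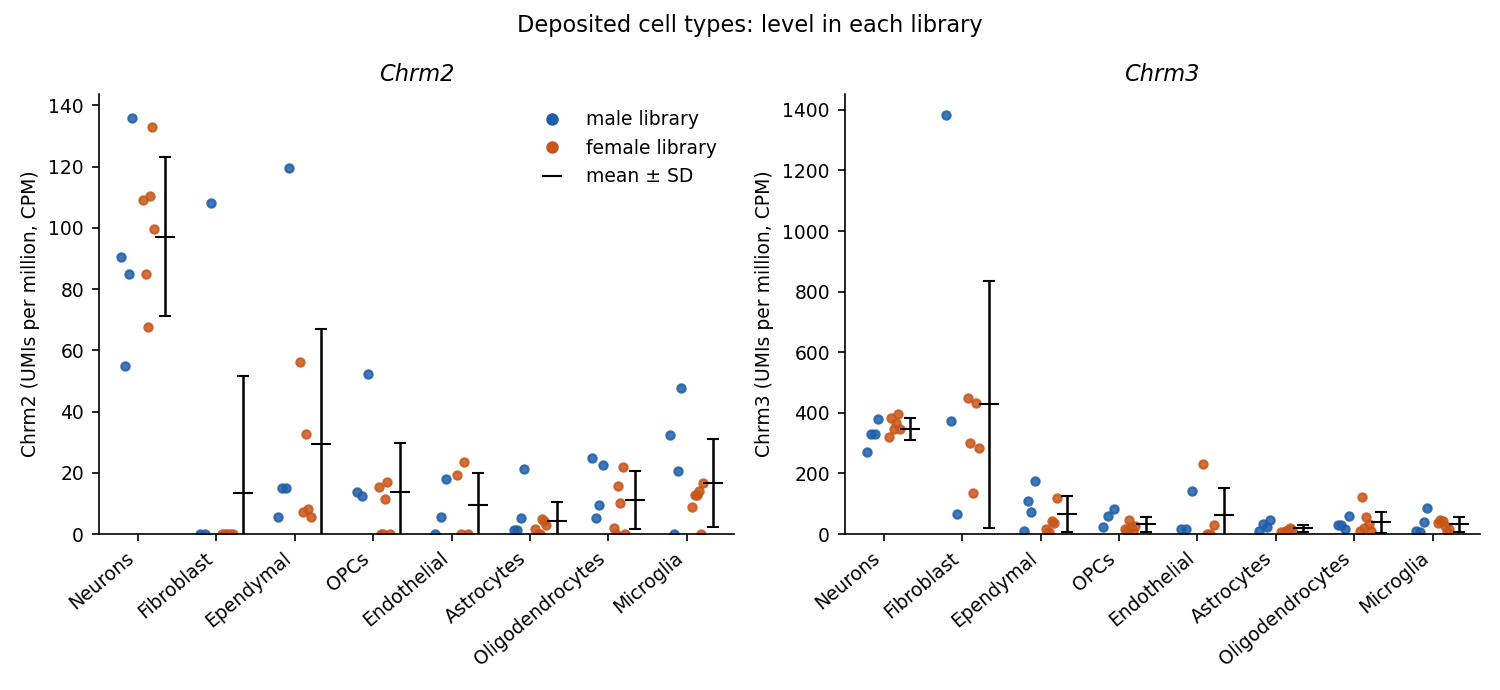
Levels of Chrm2 (left) and Chrm3 (right) in CPM on linear axes from 0, in 8 deposited cell types. Each point is 1 library with at least 10 nuclei of the type (male in blue, female in orange) and the black bar is the mean ± SD, with bars that reach below 0 ending at the axis. Neurons are high in both genes, fibroblasts range from 64.8 to 1384 CPM in Chrm3, and male library 4 is the highest point for Chrm2 in ependymal cells, OPCs and fibroblasts.

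Both genes were called higher in neurons (Chrm2 log2 fold change 3.47 ± 0.18 SE, adjusted p 5.7e-28, and Chrm3 3.08 ± 0.18, adjusted p 1.1e-25, edgeR), where 57.2% of the 9789 genes tested were called. Both were called lower in astrocytes (-1.60 ± 0.35 and -1.84 ± 0.27), where 41.2% were called. Chrm3 was called lower in microglia (-1.18 ± 0.34), where 50.1% of genes were called, in oligodendrocytes (-0.98 ± 0.30), where 46.8% were called, and in OPCs (-1.14 ± 0.37), where 33.9% were called. Chrm2 was called higher in ependymal cells (1.00 ± 0.36), where 45.9% were called, and neither gene was called in endothelial cells, where 38.3% were called. In the order of mean levels of Chrm2 and Chrm3, neighbours differed only between neurons and ependymal cells (9 of 9 libraries for both genes, adjusted p 0.0293, exact sign-flip permutation test).

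Neuron markers were counted outside neurons too, and their part in the levels of Chrm2 and Chrm3 there was not tested. Per 100 UMIs of the neuron markers Rbfox3, Snap25 and Syt1, neurons held 12.7 Chrm3 UMIs and the other types except fibroblasts between 5.71 and 10.8, and for Chrm2 these values were 3.90 in neurons and 1.61 to 4.64 in all other types. All 3 markers summed to 249 CPM (128 to 579) in astrocytes and to 544 CPM (145 to 1341) in ependymal cells. Male library 4, with 7213 nuclei the largest, had the highest summed level of these markers in astrocytes (579 CPM), ependymal cells (1341 CPM) and OPCs (1508 CPM), and the highest Chrm2 there (21.4, 120 and 52.2 CPM). Without this library the call of Chrm2 in astrocytes was lost (-1.13), and the call in ependymal cells was lost without female library 1 (0.83). In fibroblasts Chrm2 was called lower without male library 4, since each remaining library had 0 UMIs of it, and no size is given for that change.

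Fibroblasts stood apart from the other types outside neurons in Chrm3. They had 170 Chrm3 UMIs, in 38 of 179 nuclei, and 8 of 8 libraries held some, from 64.8 to 1384 CPM with a median of 336. Chrm3 was called higher in them (log2 fold change 2.59 ± 0.33 SE, adjusted p 5.4e-10, edgeR), where 20.3% of genes were called. Male library 2, at 1384 CPM, held 49 UMIs from 10 nuclei, of which 44 were in a single nucleus with 4880 UMIs in all. Without that library the fold change was 2.20 (adjusted p 5.9e-07), and over the alternatives that left out 1 library it lay between 2.20 and 2.95. Fibroblasts held 58.2 Chrm3 UMIs per 100 neuron marker UMIs. The 38 fibroblast nuclei with Chrm3 had 1071 CPM of neuron markers against 414 CPM in the 141 without, and the nucleus with 44 Chrm3 UMIs held 5 neuron marker UMIs. Of 85 fibroblast nuclei without any UMI of the 3 neuron markers, 19 held Chrm3, at a pooled level of 296 CPM, against 18.6 CPM in 2003 astrocytes, 19.3 CPM in 401 microglia and 24.9 CPM in 949 oligodendrocytes chosen in the same way. Fibroblasts and neurons did not differ in Chrm3 beyond the spread between libraries (higher in 4 of 8, adjusted p 1, exact sign-flip permutation test).

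Astrocytes were the only other type with more than 1 deposited cluster. Chrm4 and Chrm5 had 0 UMIs in its clusters 1 and 2. For the other 3 members no difference between clusters 2 and 1 passed (0 of 3 at an adjusted and 0 of 3 at an unadjusted p under 0.05, exact sign-flip permutation test, n = 9). Chrm3 had 16.0 ± 26.0 CPM in cluster 2 and 21.4 ± 14.1 CPM in cluster 1 (adjusted p 0.469, exact test).

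Genes that make and carry acetylcholine were high in the habenula, where Chrm2 and Chrm3 were low. Chat, which encodes the enzyme that makes acetylcholine, was called higher in Hb-like neurons (log2 fold change 8.91 ± 0.14 SE), with Slc5a7, the choline transporter (6.14 ± 0.14), and Prima1, the membrane anchor of acetylcholinesterase (5.79 ± 0.17). Bche, butyrylcholinesterase, was called lower in Hb-like (-3.23 ± 0.40) and higher in PVT-like (1.75 ± 0.15) and IMD-like neurons (0.91 ± 0.23). Ache, acetylcholinesterase, was called higher in BSTpr-like neurons (0.75 ± 0.10), which also had Slc5a7 at 1.45 ± 0.24. Chat was also called lower in PVT-like, IMD-like and MD-like neurons, Slc5a7 in the same 3 and Prima1 in IMD-like and MD-like neurons, against means that hold the Hb-like level. Chat had 212 ± 75.8 CPM in Hb-like neurons and mean levels of 0.0617 to 2.72 CPM in the other 4 groups, and Slc5a7 had 214 ± 52.2 CPM against 0.525 to 21.4 CPM. With Hb-like neurons left out, Chat, Slc5a7 and Prima1 did not pass the filter on low counts. Bche stayed higher in PVT-like neurons (1.00) and was not called in IMD-like neurons (0.11), and Ache stayed higher in BSTpr-like neurons (0.73). Among the PVT subtypes only Ache and Bche could be tested, and Bche was called higher in PVT4-like neurons (0.54 ± 0.12). Slc18a3, the vesicular transporter, had 190 UMIs in male libraries against 0 in female ones, and Colq, the collagen tail of acetylcholinesterase, had 83 and 5, so these 2 of the 7 listed genes were not tested.

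Chat and the receptors were also compared within the habenula. Of 855 Hb-like nuclei, 538 held a Chat UMI, and levels were compared in 9 libraries. Chrm3 had 99.7 ± 31.4 CPM in nuclei with and 162 ± 61.8 CPM in nuclei without Chat, higher with Chat in 1 library. Chrm1 had 8.35 ± 8.00 and 4.33 ± 4.31 CPM, higher with Chat in 6 libraries, and Chrm2 had 23.2 ± 17.3 and 26.3 ± 23.2 CPM, higher with Chat in 3 libraries. Nuclei with a Chat UMI are deeper by selection, and these values are a description without a test.

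Of the 16 genes of the Gq/11 arm, 12 were tested over the neuron groups. In PVT-like neurons 5 were called higher and 3 lower (median log2 fold change 0.18, against -0.00 over all genes tested), with Kcnq5 at 1.92 ± 0.10 and Kcnq3 at 1.13 ± 0.10, subunits of the M-current potassium channel. With Hb-like neurons left out of the fit, 2 were called higher and 2 lower in PVT-like neurons, with Kcnq5 still called (1.56) and Kcnq3 not (0.17), where 13.2% of all genes were called. In MD-like neurons 6 were called higher and 3 lower (median 0.35, against -0.04), with Kcnq3 at 1.80 ± 0.10, Prkca, a protein kinase C, at -1.70 ± 0.11 and Itpr2, an inositol trisphosphate receptor, at -1.47 ± 0.21. In IMD-like neurons, the highest in Chrm3, 4 were called higher and 2 lower (median 0.42, against -0.01), with Plcb1, a phospholipase C, at 1.14 ± 0.09. In BSTpr-like neurons 4 were higher and 2 lower (median 0.19, against 0.02), and in Hb-like neurons 3 were higher and 8 lower (median -1.33, against 0.03), with Kcnq3 at -3.96 ± 0.17 and Plcb1 at -3.01 ± 0.13. Without Hb-like neurons in the fit, the counts higher and lower were 3 and 3 in MD-like, 1 and 0 in IMD-like and 3 and 4 in BSTpr-like neurons, and Plcb1 in IMD-like neurons was not called (0.40). In the main fit 66.7% of the list were called in PVT-like, 75% in MD-like, 50% in IMD-like and BSTpr-like and 91.7% in Hb-like neurons. Over all genes these shares were 17.7%, 27.2%, 15.5%, 18.6% and 41.9%. Without Hb-like neurons the list gave 33.3% in PVT-like, 50% in MD-like, 8.33% in IMD-like and 58.3% in BSTpr-like neurons. All genes then gave 13.2%, 22.3%, 7.02% and 23.1%. Among the PVT subtypes 11 were tested. PVT2-like neurons had 2 higher and 1 lower, and PVT5-like neurons had 1 higher (Plcb1, 0.57 ± 0.04) and 2 lower (Kcnq5, -0.79 ± 0.05, and Prkca, -0.59 ± 0.10). PVT3-like neurons, low in Chrm3, had 1 gene called, Itpr1, the inositol trisphosphate receptor of neurons, at -1.30 ± 0.07, and PVT4-like and PVT1-like neurons had none. The genes called were 27.3% in PVT2-like and PVT5-like and 9.09% in PVT3-like neurons, against 9.88%, 6.9% and 14.3% of all genes tested. With PVT3-like neurons left out, 0 were higher and 1 lower in PVT4-like neurons (9.09%, against 12.9% of all genes). PVT2-like neurons then had 1 and 1 (18.2%, against 7.91%), and the counts in PVT5-like and PVT1-like neurons stayed the same.

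In the Gi/o arm, where all 16 genes were tested, Adcy2 and Kcnj5 were called in most PVT subtypes. Adcy2, an adenylyl cyclase, was called higher in PVT5-like (log2 fold change 2.70 ± 0.08), PVT2-like (1.68 ± 0.10) and PVT1-like neurons (0.58 ± 0.09) and lower in PVT3-like (-3.43 ± 0.16) and PVT4-like neurons (-1.53 ± 0.14), the same direction as Chrm2 in each of the 5 subtypes. With PVT3-like neurons left out of the fit, Adcy2 in PVT1-like neurons (-0.29) was not called and turned its sign, as Chrm2 did there, and it stayed called in the other 3. Kcnj5, a Kir3 channel subunit, was called higher in PVT3-like (1.48 ± 0.07) and PVT4-like neurons (1.32 ± 0.08) and lower in PVT2-like (-1.61 ± 0.12) and PVT5-like neurons (-0.96 ± 0.11), opposite to Chrm2 in these 4. In PVT3-like neurons 1 gene was called higher and 6 lower, with Kcnj9, another Kir3 subunit, also called lower (median of the 16 genes -0.20, against 0.03 over all genes tested). The other subtypes had 3 and 0 (PVT1-like, with Adcy1 at 0.95 ± 0.07), 3 and 1 (PVT2-like, with Kcnj6 at 0.65 ± 0.05), 1 and 1 (PVT4-like) and 1 and 1 (PVT5-like) genes called higher and lower, with medians between -0.06 and 0.06. From PVT1-like to PVT5-like neurons, 18.8%, 25%, 43.8%, 12.5% and 12.5% were called, against 6.85%, 9.88%, 14.3%, 10.3% and 6.9% of all genes. With PVT3-like neurons left out, PVT4-like neurons had 1 higher and 4 lower (31.2%, against 12.9% of all genes). PVT1-like neurons then had 1 and 0 (6.25%, against 4.71%), PVT2-like 2 and 1 (18.8%, against 7.91%) and PVT5-like 1 and 1 (12.5%, against 6.61%).

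Among the neuron groups, PVT-like neurons had 5 genes of the Gi/o arm called higher and 1 lower (median 0.28), led by Kcnj5 (2.21 ± 0.13), Adcy5 (0.90 ± 0.08) and Gnai1 (0.79 ± 0.06), a Gi subunit. When Hb-like neurons were left out, 2 were called higher and 1 lower in PVT-like neurons, with Kcnj5 still called (1.86) and Adcy5 (0.16) and Gnai1 (0.32) not, and the counts in MD-like, IMD-like and BSTpr-like neurons were 3 and 3, 1 and 1, and 3 and 3. MD-like neurons had 6 higher and 3 lower (median 0.24), with Adcy2 at -2.79 ± 0.16, Kcnj5 at -2.08 ± 0.25 and Adcy1 at 1.89 ± 0.09. IMD-like neurons had 7 and 1, BSTpr-like neurons 6 and 2, with Adcy2 at 2.29 ± 0.12, and Hb-like neurons 2 and 10 (median -0.85), with Adcy5 at -3.11 ± 0.17, Adcy1 at -2.85 ± 0.18 and Kcnj3, a Kir3 subunit, between them. In the main fit 37.5% of the list were called in PVT-like, 56.2% in MD-like, 50% in IMD-like and BSTpr-like and 75% in Hb-like neurons. Over all genes these shares were 17.7%, 27.2%, 15.5%, 18.6% and 41.9%. Without Hb-like neurons the list gave 18.8% in PVT-like, 37.5% in MD-like, 12.5% in IMD-like and 37.5% in BSTpr-like neurons. All genes then gave 13.2%, 22.3%, 7.02% and 23.1%.

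**Figure D5:**
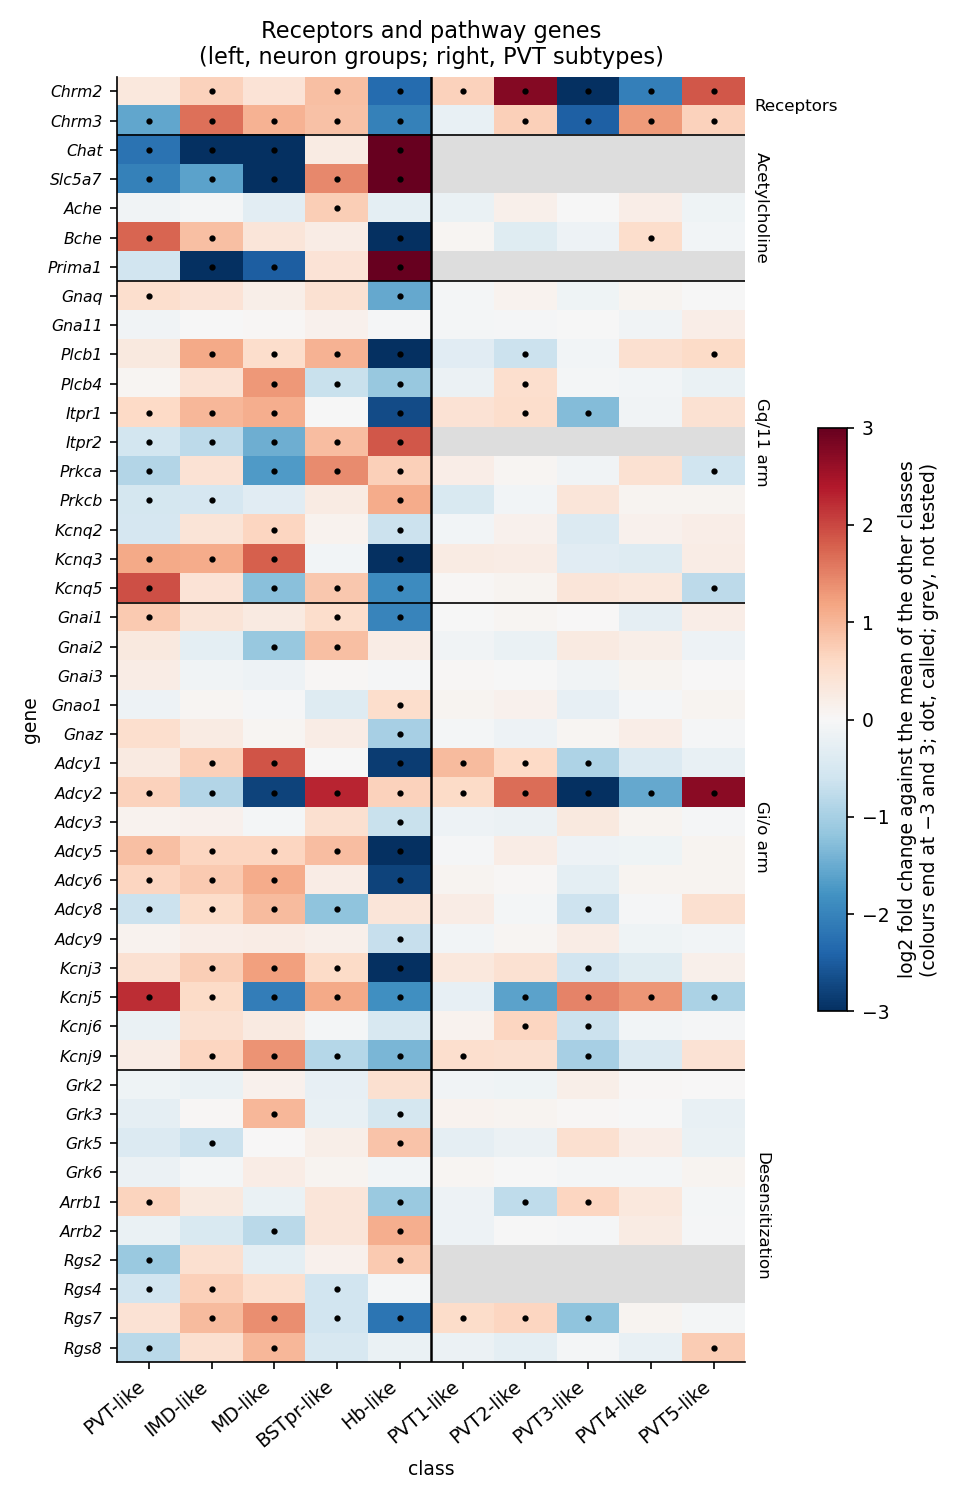
Log2 fold change of each class against the mean of the other classes, for Chrm2, Chrm3 and tested genes of 4 pathway lists (rows), in 5 neuron groups and 5 PVT subtypes (columns). Red is higher and blue is lower, colours end at -3 and 3, a dot marks a called gene and grey a gene not tested. The Hb-like column is blue for both receptors and for most Gq/11 and Gi/o genes, and Adcy2 and Kcnj5 are called in opposite directions in 4 of the 5 PVT subtypes.

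Receptor desensitization genes, which encode kinases, arrestins and regulators of G protein signalling, were called in both directions. Of 10 genes, PVT-like neurons had 1 higher, Arrb1, an arrestin (0.67 ± 0.05), and 3 lower, with Rgs2 at -1.11 ± 0.17 and Rgs8 at -0.82 ± 0.08 (median -0.24). MD-like neurons had 3 higher and 1 lower (median 0.18), with Rgs7 at 1.39 ± 0.07, Rgs8 at 1.00 ± 0.08 and Grk3, a receptor kinase, at 1.00 ± 0.06. IMD-like neurons had 2 higher and 1 lower, BSTpr-like neurons 0 and 2, and Hb-like neurons 3 and 3. The genes called were 40% in PVT-like and in MD-like, 30% in IMD-like, 20% in BSTpr-like and 60% in Hb-like neurons. Over all genes these shares were 17.7%, 27.2%, 15.5%, 18.6% and 41.9%, so in the main fit the share in BSTpr-like neurons was near that of all genes. Without Hb-like neurons 9 genes were tested. The list then gave 22.2% in PVT-like, 55.6% in MD-like, 11.1% in IMD-like and 44.4% in BSTpr-like neurons. All genes gave 13.2%, 22.3%, 7.02% and 23.1% in that fit. In the fit that left out Hb-like neurons Arrb1 was not called in PVT-like neurons (0.43), and the 3 genes named in MD-like neurons stayed called. Rgs8 stayed called lower in PVT-like neurons (-0.89). Rgs2, which was called higher in Hb-like neurons (0.80), did not pass the filter on low counts in that fit. Its lower call in PVT-like neurons was made against a mean that holds the Hb-like level and could not be checked without it. In the main fit Rgs2 was at 0.48 in IMD-like, 0.13 in BSTpr-like and -0.30 in MD-like neurons, and it was called in none of these. Among the PVT subtypes 8 were tested, and Rgs7, a regulator that acts on Gi/o proteins, was lower in PVT3-like neurons (-1.21 ± 0.05) and higher in PVT2-like (0.64 ± 0.04) and PVT1-like neurons (0.55 ± 0.04), where both higher calls were lost with PVT3-like neurons left out (0.37 and 0.27). Arrb1 was higher in PVT3-like (0.65 ± 0.06) and lower in PVT2-like neurons (-0.76 ± 0.07), and Rgs8 was higher in PVT5-like neurons (0.76 ± 0.10). From PVT1-like to PVT5-like neurons, 12.5%, 25%, 25%, 0% and 12.5% of the list were called, against 6.85%, 9.88%, 14.3%, 10.3% and 6.9% of all genes.

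Over the cell types, neurons had 7 of 13 tested Gq/11 genes called higher and 4 lower, 11 of 15 tested Gi/o genes higher and 1 lower, and 1 of 8 desensitization genes higher and 2 lower. These are 84.6%, 80% and 37.5% of the tested genes of each list, against 57.2% called of all genes tested. The medians were 0.63, 1.12 and -0.07, against 0.02 over all genes tested. Fibroblasts had 3 Gq/11 genes higher and 2 lower and 4 Gi/o genes higher and 2 lower, or 38.5% and 40% of those tested against 20.3% of all genes, with medians of -0.24 and -0.32, against -0.20 over all genes tested.

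The genes whose levels most resembled those of each receptor were named by Pearson's r over 50 sums (10 libraries and 5 classes) of log2(CPM + 1) centred within libraries. Over the neuron groups, among 10696 genes, Chrm3 was most like Cntn5 (r = 0.95), a neuronal adhesion molecule, Hs3st5 (0.93), a heparan sulfate sulfotransferase, and Slc24a3 (0.91), a sodium, potassium and calcium exchanger. Chrm2 was most like Pcdh10 (0.92), a protocadherin, Gm16183 (0.92) and Gnaq (0.92), a Gq subunit. Over the PVT subtypes, among 9070 genes, Chrm2 was most like Col25a1 (0.96), a membrane collagen, Epha6 (0.94), an ephrin receptor, and Gpc6 (0.94), a glypican, and Chrm3 was most like Gabrg3 (0.91), a GABA receptor subunit, Pcdh7 (0.91), a protocadherin, and Dlg2 (0.89), a synaptic scaffold. Between Chrm2 and Chrm3 r was 0.68 over the neuron groups and 0.55 over the PVT subtypes. These sums share libraries and depth and are not independent points. Over the neuron groups r was not computed without Hb-like neurons, where Chrm2 (-2.31), Chrm3 (-2.04) and Gnaq (-1.54) were all called lower.

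Male and female libraries were compared last, since depth goes with sex here and cannot be told apart from it. Whether the gene annotation also differs between them is not known, and the 13 mitochondrial symbols had UMIs in female libraries only. Over all neurons Chrm2 (log2 female over male 0.02 ± 0.25 SE, adjusted p 0.968) and Chrm3 (0.05 ± 0.11, adjusted p 0.801) were not called, while 13.5% of the 15265 genes tested were. In PVT-like neurons, where 13.0% of genes were called, neither Chrm2 (-0.02 ± 0.27, adjusted p 0.971, 95% interval -0.56 to 0.51) nor Chrm3 (0.15 ± 0.15, adjusted p 0.546, interval -0.14 to 0.44) was called. At an unadjusted p under 0.05 neither gene passed in these edgeR fits. In astrocytes, where 13.4% were called and of the members only Chrm3 passed the filter, Chrm3 was lower in female libraries (-1.23 ± 0.38, adjusted p 0.0456, edgeR), with 11.7 ± 4.85 CPM in 6 female and 28.7 ± 14.6 CPM in 4 male libraries. The summed neuron markers in astrocytes were also lower in female (200 ± 77.0 CPM, 128 to 347) than in male libraries (323 ± 204 CPM, 150 to 579), and their part in this call was not tested. With 1 library left out, the call was lost in 7 of 10 cases, down to a fold change of -0.84 without male library 4, and without female library 5 the gene did not pass the filter.

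The class differences themselves were compared between the sexes in 50 exact permutation tests over the 210 splits of 4 and 6 libraries. The smallest p of a single test is 0.0048, which over 50 tests cannot pass alone after adjustment, so these tests do not show that the sexes are alike. The lowest adjusted p was 1, and 1 test passed unadjusted. That was Chrm3 in MD-like neurons, which exceeded the other groups of its library by 1.09 ± 0.15 (SD) on the log2 scale in 4 male and by 0.85 ± 0.14 in 6 female libraries (p 0.0381, exact permutation test).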

How the data were processed

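Single-nucleus RNA-seq was measured in 10 libraries. The authors counted 10x Genomics reads with Cell Ranger 6.1.1 against mm10, per the labels, and deposited raw UMI counts (whole numbers, one row for each gene symbol). The paper's methods name an earlier Cell Ranger version, and which libraries it applies to is not stated. No source used here gives the gene annotation or says whether introns or strand were counted. The deposited metadata hold the cluster name and each nucleus's mitochondrial percent as computed by the authors, who kept nuclei with at least 200 genes and at most 5% and removed clusters they judged doublets. No doublet caller was run here. Other metadata columns, 22 in number, were not used. For each of the 20503 nuclei, summed matrix counts matched the deposited UMI number.

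Clustering (Python 3.11.15) took neurons over 1000 genes first and PVT-like ones next, from residuals of a negative binomial model made within each library (overdispersion 100), 3000 variable genes of 17317 eligible ones, 6 and 18 principal components, a graph of 20 neighbours and Leiden (leidenalg 0.10.2) at resolutions 0.3 and 0.4. The 50 member and pathway genes were left out. A cluster was named if at least 3 markers of a class were over 1.5 times the median cluster. The naming rule was changed after first names had been seen, on markers alone, so that PVT and PVT subtype markers counted together.

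UMIs were summed per library and class, and all genes passing filterByExpr were fitted in edgeR 4.0.16 (R 4.3.3) with TMM scaling and, between classes, library as a block. CPM use all symbols but the mitochondrial ones, and exact tests over libraries used log2(CPM + 1). On simulated counts the fit recovered 96.9% of 97 genes changed by a log2 fold of 1 over the neuron groups and 85.9% of 92 over the PVT subtypes, and 32.3% of 93 between the sexes in PVT-like neurons. These counts had a fixed dispersion, no other class differences and no library effect beyond total counts. The shares are thus a check of the fit and not its power on these data. Alternatives were DESeq2 1.42.0, its size factors, no filter, no block, each sex alone, 1 library left out, other minimums, thresholds and resolutions, and, added after the data were seen, classes by 1 marker gene each and fits with Hb-like or PVT3-like neurons left out. The labels do not say whether libraries came from separate pools of mice beyond their titles, so p-values measure the spread between these libraries.

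The members, the pathway lists and the tests were chosen with earlier results of these data known. Named were the 5 members, the 3 genes most like each, the acetylcholine list, and of the other lists up to 3 called genes with the largest absolute fold change in PVT-like, MD-like and each PVT subtype's neurons. Genes of the acetylcholine list at few UMIs were not tested. In the Gq/11 arm, 1 gene is counted but not reported by name or drawn here. Pathway genes named in IMD-like, BSTpr-like and Hb-like neurons were chosen after their values were seen, by the same order of fold change.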

Additional observations from a re-analysis of the deposited data

Results flagged for a closer look

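Of 39 groups of 4 to 10 libraries looked at, 10 held a library far from the rest (a gap to the next library above the 95% limit of Dixon's test), where chance gives about 1 in 20. Male library 4 accounted for 5 of these, all outside neurons. It had 21.4 CPM of Chrm2 in astrocytes (next 5.21), 52.2 CPM in OPCs (next 16.9, from 9 UMIs), 120 CPM in ependymal cells (next 56.2) and 108 CPM in fibroblasts (5 UMIs, with 0 in all others), and 84.5 CPM of Chrm3 in microglia (next 45.1). In these 5 types its summed neuron markers were 579, 1508, 1341, 1015 and 1165 CPM. Their part in these values was not tested.

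Male library 2 had 1384 CPM of Chrm3 in fibroblasts, from 49 UMIs in 10 nuclei (next 448 CPM), and the lowest Chrm3 level in PVT-like neurons at 103 CPM, from 317 UMIs in 198 nuclei (next 148 CPM). Female library 2 had 122 CPM of Chrm3 in oligodendrocytes, from 30 UMIs in 111 nuclei (next 58.0 CPM). Female library 4 had 15 CPM of Chrm1 in BSTpr-like neurons, from 4 UMIs (next 5.18 CPM), and 60.9 CPM of Chrm2 in PVT4-like neurons, from 15 UMIs in 43 nuclei (next 33.5 CPM).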

How the results depend on the processing

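The numbers of calls across cell types (9), neuron groups (8) and PVT subtypes (9) stayed within 1.5 times under DESeq2, its size factors, no filter on low counts, no replicate block (8, 8 and 9), each sex alone and each library left out. The single-marker split that was first set out, fitted as an alternative after the data were seen, gave 3 calls over the neuron groups and 5 over the PVT subtypes. In it 3 subtypes and 4 groups entered, and Chrm2 in PVT4-like neurons turned from -2.06 to 0.27. Its PVT4-like nuclei included 4.48% of the PVT4-like cluster. Of the nuclei it took as PVT2-like and PVT3-like, 40.5% and 56.0% were in those clusters. With Hb-like neurons left out of the fit 3 calls were made over the 4 other groups, and with PVT3-like neurons left out 5 over the 4 other subtypes, where Chrm2 in PVT1-like neurons turned from 0.70 to -0.12 (both added after the data were seen). The single call between the sexes, Chrm3 in astrocytes, became 0 with only symbols counted in both sexes, and 0 to 1 with 1 library left out. With the replicate number as a block it stayed 1 (-1.50, adjusted p 0.0271, edgeR), but the numbers do not pair the libraries. Of 12 pairs of same-numbered libraries 1 had a correlation of deviations over 0.1 (range -0.161 to 0.108), and in 0 cases was a library most like its own number. Among the values of single members under all alternatives, 815 stayed on their side of the threshold, 2 called values turned as given above, 28 lost their call, 5 gained one and 38 values without a test moved by more than the spread between libraries.

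Depth limits Chrm1, Chrm4 and Chrm5, whose counts allow shares of nuclei but few fold changes, and the female libraries, each of which had a lower median depth of neurons than any male library. Sums of few nuclei (fibroblasts, endothelial cells, OPCs) rest on single nuclei in places. The gene annotation is not known, so intronic and antisense reads cannot be told apart from exonic ones.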
